A study of Mus musculus with 11 samples.

Results

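The genes described are 10 of the MHC antigen presentation pathway, out of 37991 gene IDs counted by RNA-Seq in mouse hematopoietic stem cells (HSC): H2-K1, H2-D1, H2-T23, B2m and Tap1 of the class I arm, and H2-DMa, Cd74, H2-Aa, H2-Ab1 and H2-Eb1 of the class II arm. They were chosen by symbol with results of these genotypes known, so the genotype differences of these 10 genes are given as a description, without p-values. All 10 passed the filter on low counts in each comparison.

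The study asked how the NA10hd and NrasG12D transgenes alter gene expression in HSC. Cells of the phenotype Lin- CD48- c-Kit+ Sca1+ CD135- CD150+ were sorted from bone marrow of 8 weeks old C57BL/6 mice in aliquots of 1000 cells, and 11 libraries were sequenced. The 4 NA10hd libraries came from mice labelled NA transgenic, which carry a NUP98-HOXA10HD fusion in the ROSA26 locus behind a stop cassette that Vav-Cre removes in blood cells. The 3 NV libraries came from mice labelled NrasG12D transgenic, in which Vav-Cre activates an NrasG12D allele in the same way. The 4 control libraries came from mice labelled wild type, described in the methods as littermates, and whether the controls of this experiment carried Cre or an unrecombined allele was not given. The study calls the libraries biological replicates, but the sources do not say whether each came from a separate mouse, and p-values measure only the spread between these libraries. Vav-Cre is active across blood cells, so the mutation was also present in the progeny of the sorted cells.

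Total counts per library ranged from 5464815 to 14283008, and 13859 to 15900 genes had a count. Levels are given as CPM, counts scaled by the library's total and by edgeR's TMM factor. NA10hd replicate 4 stood apart from the rest: it held 216 Xist counts, 0 counts of 4 Y-linked genes and the fewest genes with a count, whereas NA10hd replicates 1 to 3 and control replicates 1 and 4 held 0 Xist counts and control replicates 2 and 3 and all NV libraries held both. Values of NA10hd are therefore also given without replicate 4. The NA10hd libraries also differed more from each other than those of control or NV did, whether or not replicate 4 was included. The 8 HSC markers examined were present in all groups, with summed levels of 2205 to 2733 CPM in control, 2442 to 3097 CPM in NA10hd and 1888 to 2345 CPM in NV. RNA of a whole aliquot was measured, so fewer cells of a type and less RNA per cell cannot be told apart.

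MHC class I molecules display peptides made inside the cell to CD8+ T cells and are found on nearly all nucleated cells. A class I molecule is a heavy chain bound to the light chain β2-microglobulin, and its peptides enter the endoplasmic reticulum through the TAP transporter. MHC class II molecules display peptides from endocytosed proteins to CD4+ T cells and are best known from B cells, dendritic cells and macrophages. Both sets of promoters are known to carry an X box, bound by RFX and CREB factors, followed by a Y box (CCAAT, bound by NF-Y), and the coactivators Ciita and Nlrc5 act on class II and class I promoters, respectively.

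The promoters of 6 of the genes are shown as examples from both classes, each of which holds at least 1 of the motifs searched. RefSeq promoters of build GRCm38.p6 were matched to 8 of the 10 genes, and the 250 bases before the annotated start are printed 5′ to 3′. Capitals mark every match, on either strand, to the interferon response element core (GAAA, 2 bases of any kind, GAAA), AACNGATG (an X box core), TGACG (the core of a cAMP response element, found in the second part of the X box) or CCAAT (written ATTGG where it lies on the other strand). The windows are chr17:34000334-34000583 on the minus strand for H2-K1, which has a second annotated start, chr17:35262844-35263093 on the plus strand for H2-D1, chr17:36032702-36032951 on the minus strand for H2-T23, chr2:122147437-122147686 on the plus strand for B2m, chr17:34287824-34288073 on the minus strand for H2-Aa and chr17:34305617-34305866 on the plus strand for H2-Eb1.
H2-K1: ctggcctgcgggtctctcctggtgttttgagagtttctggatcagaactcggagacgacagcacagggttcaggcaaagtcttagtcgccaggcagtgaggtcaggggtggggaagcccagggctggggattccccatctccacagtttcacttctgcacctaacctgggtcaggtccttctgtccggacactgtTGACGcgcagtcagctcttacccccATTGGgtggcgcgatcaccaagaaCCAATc
H2-D1: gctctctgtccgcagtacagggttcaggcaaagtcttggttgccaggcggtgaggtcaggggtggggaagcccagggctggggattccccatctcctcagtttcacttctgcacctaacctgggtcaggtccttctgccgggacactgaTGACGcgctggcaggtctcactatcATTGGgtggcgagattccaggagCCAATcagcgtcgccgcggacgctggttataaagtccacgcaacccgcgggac
H2-T23: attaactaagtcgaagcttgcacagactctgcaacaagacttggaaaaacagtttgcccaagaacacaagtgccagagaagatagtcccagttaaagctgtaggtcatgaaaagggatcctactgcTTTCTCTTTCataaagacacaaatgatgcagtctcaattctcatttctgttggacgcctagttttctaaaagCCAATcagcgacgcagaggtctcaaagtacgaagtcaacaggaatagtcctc
B2m: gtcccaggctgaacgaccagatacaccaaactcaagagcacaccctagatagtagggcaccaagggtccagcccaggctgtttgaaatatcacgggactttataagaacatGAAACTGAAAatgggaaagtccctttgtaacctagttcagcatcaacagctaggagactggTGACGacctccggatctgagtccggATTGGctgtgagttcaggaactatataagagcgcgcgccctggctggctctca
H2-Aa: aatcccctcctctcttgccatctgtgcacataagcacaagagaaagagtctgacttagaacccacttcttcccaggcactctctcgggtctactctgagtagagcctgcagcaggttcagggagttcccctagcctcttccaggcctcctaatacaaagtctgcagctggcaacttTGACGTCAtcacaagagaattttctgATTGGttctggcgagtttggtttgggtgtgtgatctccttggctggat
H2-Eb1: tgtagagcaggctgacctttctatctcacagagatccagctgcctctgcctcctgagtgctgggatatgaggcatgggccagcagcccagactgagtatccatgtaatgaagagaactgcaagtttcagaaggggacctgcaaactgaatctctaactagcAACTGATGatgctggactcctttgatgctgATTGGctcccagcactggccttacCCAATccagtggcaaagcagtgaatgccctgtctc
In H2-Aa, the capitals TGACGTCA are overlapping TGACG matches on both strands.

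Matches were counted in the whole 300 base window, which runs 50 bases past the start. CCAAT was found in all 8 genes with an entry, including Tap1 and H2-DMa, against 37.4% of 32851 promoters and 62.2% of the 45 other antigen presentation genes with an entry. TGACG was found in B2m, H2-Aa, H2-D1, H2-K1 and Tap1, against 20.8% of all promoters and 28.9% of those other genes. The interferon response element core was found in B2m and H2-T23, against 3.44% of all promoters, and AACNGATG in H2-Eb1, against 2.32%, while each was found in 11.1% of the other genes. The spacing of the boxes was looked at after these matches had been seen. In B2m, H2-K1 and H2-D1 the first base of TGACG lay 25 bases before the first base of ATTGG, and in H2-Aa it lay 26 bases before. Either spacing in this orientation was found in 31 of 32851 promoters (0.0944%), and among the 45 other genes it was found in H2-M3, a class I heavy chain. These are matches of letters, not shown to be bound sites.

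In control HSC the class I genes led the order of levels per length. B2m, the light chain shared by all class I molecules, stood at 5191 ± 346 CPM per kb of exons (SD, n = 4), rank 5 of 13987 genes. The classical class I heavy chains H2-K1 and H2-D1 followed at 1449 ± 58.0 and 733 ± 25.01 CPM per kb (SD, n = 4). H2-DMa, a chain of the H2-DM complex that edits the peptides of class II molecules, was the highest class II gene at 107 ± 7.81 CPM per kb (SD, n = 4). The control libraries of each of these 4 genes did not overlap with those of the next gene in the order. The class I genes were thus not uniformly high, since H2-T23, the heavy chain of the nonclassical molecule Qa-1, stood at 48.0 ± 3.62 CPM per kb and Tap1, one chain of the peptide transporter, at 30.7 ± 3.31 CPM per kb (SD, n = 4 each).

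The class II chains were low but above the median of all genes, which was 7.03 CPM per kb. H2-Ab1, the β chain of I-A, stood at 31.7 ± 9.48 CPM per kb (SD, n = 4). Cd74, the invariant chain that escorts class II molecules to the endosome, stood at 27.2 ± 8.12 CPM per kb, and H2-Eb1, the β chain of I-E, at 23.96 ± 6.39 CPM per kb (SD, n = 4 each). H2-Aa, the α chain of I-A, was the lowest at 13.5 ± 3.63 CPM per kb (SD, n = 4), rank 4702. Its level depended on the length used, since with the longest transcript in place of all exons it stood at 23.8 ± 6.36 CPM per kb, beside 24.2 ± 6.45 CPM per kb for H2-Eb1 (SD, n = 4 each). From H2-T23 down, the range of each gene's libraries per length of all exons overlapped with that of the next. Within libraries, H2-T23 was above H2-Ab1 and H2-Eb1 above H2-Aa in all 4 by this length and in 3 of 4 by the longest transcript, whereas H2-Ab1 was above Tap1 in 2 of 4, Tap1 above Cd74 in 2 of 4 and Cd74 above H2-Eb1 in 3 of 4 by all exons. By the longest transcript, Tap1 was above Cd74 in all 4 libraries, without overlap. H2-Ea-ps, the I-E α chain gene that is silent in C57BL/6 mice, had 0 counts in all 11 libraries.

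**Figure D1:**
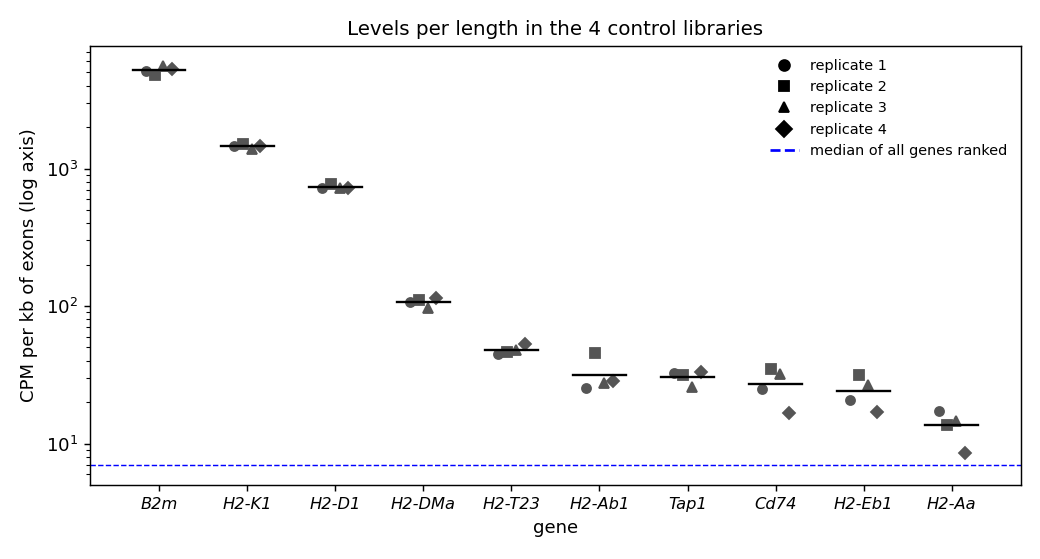
Level per length of the 10 genes in the 4 control libraries, in CPM per kb of exons on a log axis. Points are libraries, black lines are means and the dashed line is the median of all genes (7.03); B2m, H2-K1, H2-D1 and H2-DMa are separated from the genes below them, and the 6 lower genes overlap with their neighbours.

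Reads of the class I heavy chains are not fully separable, because parts of their transcripts are identical between genes. All 50-base windows of each gene's longest coding transcript were searched for in coding transcripts of other genes. Of these windows, 8.87% of H2-K1, 14.3% of H2-D1 and 14.8% of H2-T23 were found there. The share was 0.861% for Tap1 and 0 for B2m and for the 5 class II genes. How reads that match several genes were counted was not given, so counts of the heavy chains are uncertain. Noncoding transcripts, such as that of the pseudogene H2-K2, were not searched, so these shares can be too low. H2-Aa and H2-Ab1 overlap by 88 bases on opposite strands of chromosome 17 (NCBIM37), and reads from that stretch cannot be assigned without strand.

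The classical heavy chains were higher in both mutant genotypes by small amounts. H2-K1 (chromosome 17, 34132962 to 34137278, minus strand, NCBIM37) was at 3783, 3956, 3587 and 3789 CPM in control, 4290.4, 4407, 4914 and 5259.7 CPM in NA10hd and 4605, 4673 and 4219 CPM in NV. H2-D1 (chromosome 17, 35399675 to 35404444, plus strand) was at 1870.1, 1995, 1861 and 1865 CPM in control, 2184, 2089, 2418 and 2845 CPM in NA10hd and 2267, 2440.0 and 2102 CPM in NV. For both genes every mutant library was above every control library, and NA10hd and NV libraries overlapped. The fitted log2 fold change of H2-K1 was 0.32 ± 0.12 (SE) in NA10hd and 0.25 ± 0.07 in NV, and that of H2-D1 was 0.33 ± 0.13 and 0.25 ± 0.08. Without NA10hd replicate 4, the highest library of both genes, the NA10hd values were 0.27 and 0.24.

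H2-T23, whose product Qa-1 presents leader peptides of other class I chains to NK cell receptors, was also higher in both genotypes. Its levels (chromosome 17, 36166718 to 36169800, minus strand) were 129, 134, 138 and 153 CPM in control, 235, 197, 232 and 256 CPM in NA10hd and 190.4, 228 and 209 CPM in NV. Mutant libraries did not overlap with control, and NA10hd overlapped with NV. H2-T23 differed from control by a log2 fold change of 0.73 ± 0.15 in NA10hd (0.68 without replicate 4) and 0.59 ± 0.12 in NV. The NV value is only just past the 1.5-fold needed for a call.

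B2m was the class I gene that differed least. It was at 4395, 4091, 4795 and 4574 CPM in control, 4178, 3979, 5377 and 6541 CPM in NA10hd and 5079.5, 4747 and 4637 CPM in NV (chromosome 2, 121973422 to 121978819, plus strand). The 3 groups overlapped, and NA10hd replicate 4 was the highest of the 11 libraries. The log2 fold change was 0.17 ± 0.16 in NA10hd, 0.02 without replicate 4, and 0.11 ± 0.07 in NV. The amplified cDNA of each library had been passed on a qPCR of housekeeping genes that included B2m, so libraries with little B2m may have been left out before sequencing.

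Tap1 was higher in NV, and mixed in NA10hd. It was at 177, 172, 142 and 182 CPM in control, 138, 222, 292 and 234 CPM in NA10hd and 311, 353 and 315 CPM in NV (chromosome 17, 34324498 to 34334170, plus strand). All NV libraries were above all others, while NA10hd replicate 1 was below every control library and NA10hd replicates 2 to 4 were above them. Fitted log2 fold changes were 0.95 ± 0.12 in NV, a fold change of 1.94, and 0.40 ± 0.21 in NA10hd, 0.38 without replicate 4.

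Like H2-T23, and unlike the other class II genes, H2-DMa was higher than control in every library of both mutant genotypes. It was at 176, 181, 158 and 189 CPM in control, 229, 279, 248 and 384 CPM in NA10hd and 330.0, 247 and 288 CPM in NV (chromosome 17, 34272127 to 34276046, plus strand). NA10hd and NV libraries overlapped with each other. Fitted log2 fold changes were 0.70 ± 0.17 in NA10hd, 0.53 without replicate 4, and 0.71 ± 0.12 in NV.

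The class II chains were higher in NV than in control, and in NA10hd their libraries overlapped with control. H2-Eb1 (chromosome 17, 34442828 to 34453144, plus strand) was at 24.5, 37.4, 31.7 and 20.3 CPM in control, 29.6, 6.92, 5.53 and 29.0 CPM in NA10hd and 72.4, 74.8 and 72.1 CPM in NV. The NV libraries, with an SD of 1.47 CPM (n = 3), were close together and far above all others, whereas NA10hd split into replicates 1 and 4, within the control range, and replicates 2 and 3, below it. On the log2 scale the fold change was 1.35 ± 0.20 in NV, a fold change of 2.54, and -0.70 ± 0.49 in NA10hd, -1.04 without replicate 4.

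H2-Ab1 (chromosome 17, 34400154 to 34406363, plus strand) was at 41.5, 75.3, 45.0 and 46.9 CPM in control, 51.4, 33.3, 35.3 and 85.3 CPM in NA10hd and 107.0, 132 and 118 CPM in NV. Again NV replicates 1 to 3 were above every other library, and the same NA10hd replicates, 2 and 3, were the lowest of all. Its fitted log2 fold change was 1.18 ± 0.20 in NV and -0.03 ± 0.31 in NA10hd. Without NA10hd replicate 4 the NA10hd value was -0.38.

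Its partner H2-Aa (chromosome 17, 34406276 to 34424772, minus strand) was at 34.3, 27.3, 28.9 and 17.1 CPM in control, 58.5, 12.8, 35.1 and 32.1 CPM in NA10hd and 62.5, 43.6 and 55.2 CPM in NV. NV did not overlap with control but did overlap with NA10hd, through NA10hd replicate 1. Fitted log2 fold changes were 0.99 ± 0.23 in NV and 0.36 ± 0.38 in NA10hd, 0.40 without replicate 4. The α and β chains of I-A thus did not follow each other library by library in NA10hd, since replicate 1 was the highest NA10hd library for H2-Aa and replicate 4 for H2-Ab1.

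Cd74 (chromosome 18, 60963502 to 60972300, plus strand) was at 35.4, 49.3, 45.3 and 23.7 CPM in control, 27.3, 14.4, 33.6 and 77.4 CPM in NA10hd and 75.4, 61.0 and 51.7 CPM in NV. Every NV library was above every control library, with NV replicate 3 only just above control replicate 2. Its log2 fold change was 0.70 ± 0.24 in NV. In NA10hd it was -0.02 ± 0.42 with all libraries and -0.61 without replicate 4, which alone was above the control range.

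**Figure D2:**
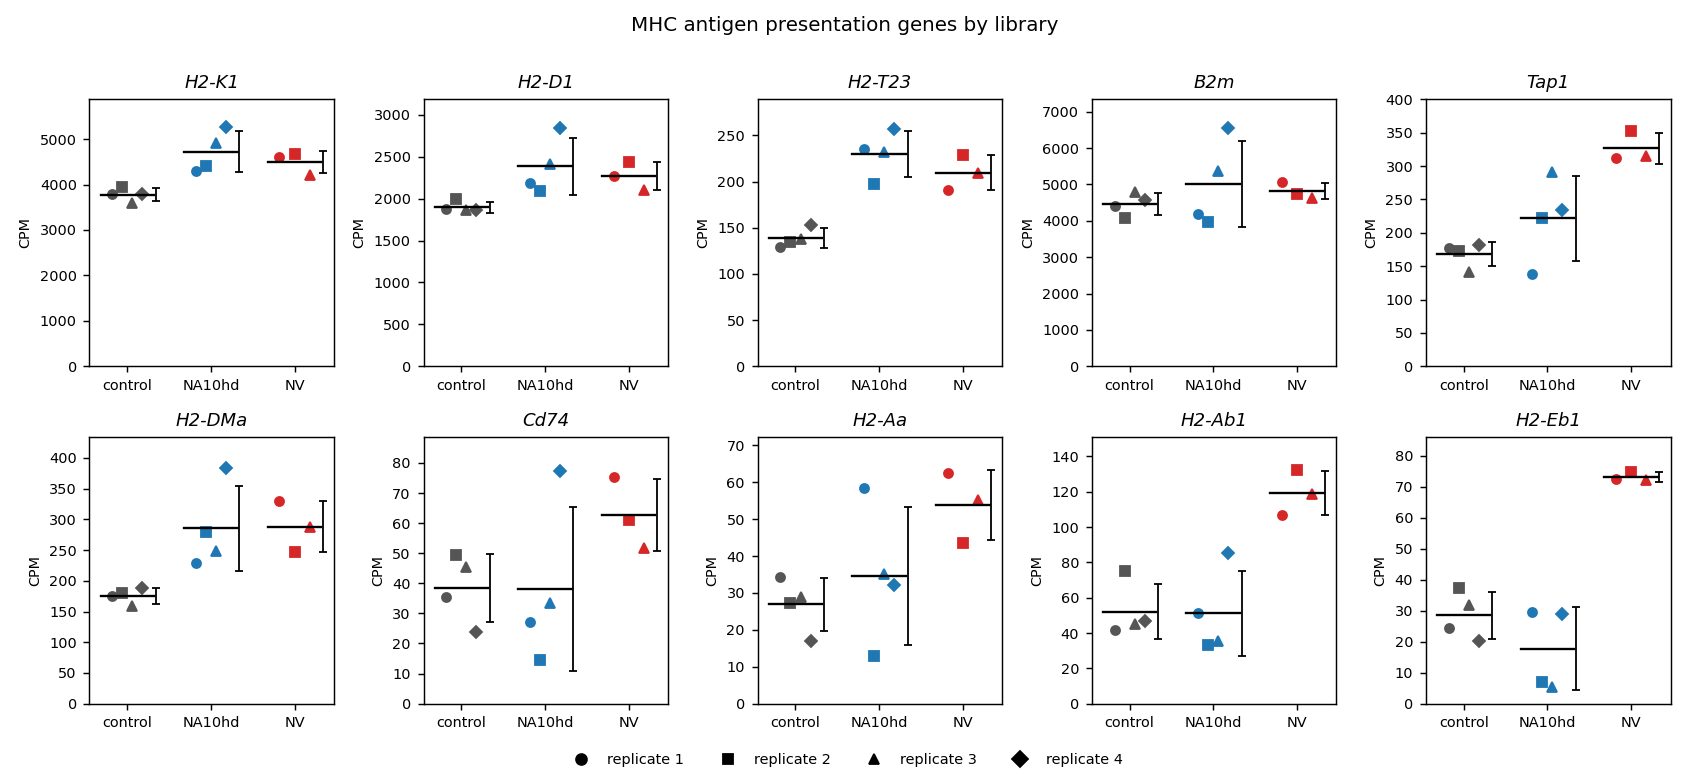
CPM of the 10 genes in each of the 11 libraries, by genotype. Points are libraries with a symbol for each replicate number, horizontal lines are means and bars are SD (n = 4 control, 4 NA10hd, 3 NV); all NV libraries are above all others for Tap1, H2-Ab1 and H2-Eb1, and NA10hd replicate 4 is the highest NA10hd library for H2-K1, H2-D1, H2-T23, B2m, H2-DMa, Cd74 and H2-Ab1.

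A DEG needed a fold change above 1.5 together with an adjusted p below 0.05 from edgeR's quasi-likelihood test with Benjamini-Hochberg adjustment over all genes tested. Between NV and control, 6 of the 10 genes were called, all higher: H2-Eb1, H2-Ab1, H2-Aa, Tap1, H2-DMa and H2-T23. Over all 13462 genes tested, 4.76% were called, 2.55% higher and 2.21% lower. Since the genes were chosen with this contrast known, nothing is read from that count. Tap1, H2-DMa, H2-Ab1 and H2-Eb1 were called in each of the 7 fits that left out 1 library. H2-Aa lost its call without NV replicate 1, 2 or 3 or control replicate 2 or 4, where its log2 fold change ranged from 0.83 to 1.13 over the 7 fits, and H2-T23 lost it without NV replicate 2 or 3 or control replicate 1, 2 or 3, with a range of 0.52 to 0.65. With all 3 groups in one fit Tap1 alone was called, and with only the libraries that held both Xist and Y-linked counts (3 NV, 2 control) H2-DMa, H2-Eb1 and Tap1 were.

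Between NA10hd and control, 0 of the 10 genes were called by edgeR, beside 1 of 13060 genes in all (0.00766%), which was lower. DESeq2 called H2-DMa and H2-T23, both higher, on the same libraries, and called 238 genes in all. With all 3 groups in one fit, edgeR called H2-T23 and 39 genes in all. On simulated data the edgeR fit of NA10hd against control recovered 27 of 100 changes of 2-fold, beside 53 of 100 for NV against control. A gene that was not called is thus not shown to be unchanged. H2-K1, H2-D1, H2-T23 and H2-DMa were higher in all 4 NA10hd libraries than in all 4 control libraries, beside 3.89% of all genes tested that were higher without overlap and 3.94% that were lower. Between NV and control the libraries did not overlap for 9 of the 10 genes, all but B2m, beside 9.49% of all genes tested that were higher in this way and 9.37% that were lower. Both comparisons used the same 4 control libraries. Side by side, the median log2 fold change of the 5 class I genes was 0.33 in NA10hd and 0.25 in NV, and that of the 5 class II genes was -0.02 in NA10hd and 0.99 in NV. Without NA10hd replicate 4 the NA10hd medians were 0.27 for class I and -0.38 for class II. The median of all genes tested was 0.02 and -0.01.

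The mutant genotypes were also compared with each other. All NV libraries held both Xist and Y-linked counts and no NA10hd library held both, so genotype and this mix cannot be told apart here. H2-Eb1 and H2-Ab1 were called, both lower in NA10hd than in NV, beside 2.79% of 13461 genes tested that were called and lower and 2.3% that were called and higher. The log2 fold change was -2.07 ± 0.52 for H2-Eb1, and -1.23 ± 0.30 for H2-Ab1, where the level in NA10hd was 2.35-fold lower. These calls depended on single libraries. H2-Ab1 kept its call in 1 of 7 fits that left out 1 library (without NA10hd replicate 4) and H2-Eb1 in 2 (without NA10hd replicate 1 or 4), so leaving out NA10hd replicate 2 or 3 or any NV library ended both, with log2 fold changes that ranged from -1.58 to -1.06 for H2-Ab1 and from -2.44 to -1.77 for H2-Eb1. Without NA10hd replicate 4, Cd74 was called as well, at -1.32 ± 0.32 against -0.74 ± 0.44 with all libraries. Tap1, H2-Ab1 and H2-Eb1 were lower in all NA10hd than in all NV libraries, beside 11.3% of all genes tested that were lower without overlap and 9.63% that were higher. Tap1 was not called (log2 fold change -0.56 ± 0.22), and the other class I genes had log2 fold changes of 0.05 to 0.13.

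**Figure D3:**
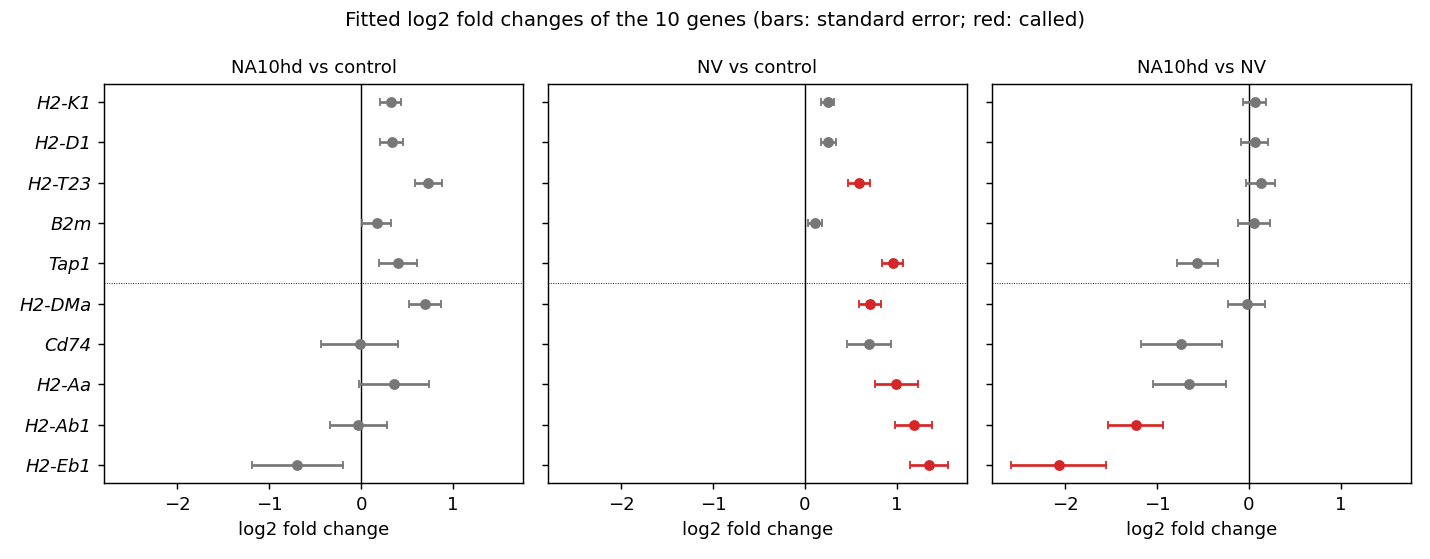
Fitted log2 fold changes of the 10 genes in the 3 comparisons, with bars for the standard error and red points for called genes; class I genes are above the dotted line and class II genes below it. In NV against control all 10 points are above 0 and 6 are red; in NA10hd against control none is red; in NA10hd against NV H2-Ab1 (-1.23) and H2-Eb1 (-2.07) are red.

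The rest of the pathway was examined with lists of 68 other genes, of which 63 symbols were found with 66 gene IDs. Between NV and control, 53 IDs were tested, of which 5 rose and 1 fell, beside 2.55% and 2.21% of all genes tested, and 18 had an unadjusted p under 0.05, beside 19.5% of all genes, and the median log2 fold change was 0.22. Between NA10hd and control, 0 of 52 were called by edgeR, with 11 at an unadjusted p under 0.05, beside 11.9% of all genes, and 1 called by DESeq2 (Pdia3, an oxidoreductase of the class I loading complex, which was lower), and a median of 0.16. Between NA10hd and NV, 1 of 53 was higher in NA10hd and 2 were lower, beside 2.3% and 2.79% of all genes, with a median of -0.08. Adjusted p-values of these genes are from edgeR over all genes tested.

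Among the class I heavy chains outside the 10 genes, 2 of 15 tested rose in NV and none fell, beside the same 2.55% and 2.21% of all genes. H2-Q7, a Qa-2 heavy chain, was at 178, 259, 271 and 203 CPM in control, 189, 230.5, 333 and 414 CPM in NA10hd and 425, 554 and 450.3 CPM in NV. It rose in NV by a log2 fold change of 1.06 ± 0.15 (adjusted p = 0.0025) and did so in all 7 fits that left out 1 library. H2-Q8, from the same gene cluster, was at 42.5 ± 4.11 CPM in control (SD, n = 4) and 57.9, 110.4 and 86.1 CPM in NV, a log2 fold change of 0.99 ± 0.20 (adjusted p = 0.0145), which was lost without NV replicate 2 (0.75, adjusted p = 0.0932) or NV replicate 3 (0.98, adjusted p = 0.0708) and in the libraries of the same Xist and Y-linked mix (0.98, adjusted p = 0.105). Of the 50-base windows of H2-Q7, 27.0% were found in coding transcripts of other genes, so its counts are uncertain too. Fcgrt, the class I-like chain of the neonatal Fc receptor, was the one heavy chain that differed between the mutants, higher in NA10hd than in NV (log2 fold change 1.39 ± 0.33, adjusted p = 0.0347), and lost without NA10hd replicate 2 (1.19, adjusted p = 0.0649) or NV replicate 1, 2 or 3 (adjusted p 0.1204 to 0.1776) and with the replicate block (1.20, adjusted p = 0.0659).

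No peptide supply or loading gene other than Tap1 passed the threshold by edgeR. Of the 11 tested, which include Tap2, the loading factors Tapbp and Calr, and the immunoproteasome subunits Psmb8 and Psmb10, 0 were called by edgeR in any of the 3 comparisons, with 6, 1 and 2 at an unadjusted p under 0.05 in NA10hd against control, NV against control and NA10hd against NV, beside 11.9%, 19.5% and 19.5% of all genes. Psmb9, the immunoproteasome subunit next to Tap1, had 0 counts in all libraries under each of its 2 IDs, which overlap almost entirely, so its level cannot be read from these counts.

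In the class II arm, 1 of 4 other chain and peptide exchange genes tested rose in NV and none fell, beside 2.55% and 2.21% of all genes. H2-Ob, the β chain of H2-O, which restrains H2-DM, was at 6.08, 16.2, 10.9 and 12.2 CPM in control, 6.02, 20.6, 10.2 and 11.2 CPM in NA10hd and 40.7, 49.5 and 47.1 CPM in NV. H2-Ob rose by 1.99 ± 0.28 on the log2 scale in NV (adjusted p = 0.0019), past the threshold in all 7 fits that left out 1 library, and differed by -1.93 ± 0.38 between NA10hd and NV (adjusted p = 0.0170), lost without NV replicate 1, 2 or 3 (adjusted p 0.0594 to 0.101). As for H2-Ab1 and H2-Eb1, all NV libraries were above all control and NA10hd libraries. Of 5 processing and turnover genes tested in NV, 1 rose and 1 fell, beside the same shares of all genes. Ctss, cathepsin S, which cleaves the invariant chain, rose by 1.62 ± 0.35 (adjusted p = 0.0186), from 7.43 ± 2.98 CPM (SD, n = 4) to 22.7 ± 4.03 CPM (SD, n = 3), and lost the call without NV replicate 1, 2 or 3 (adjusted p 0.0529 to 0.0919) and with all 3 groups in one fit (adjusted p = 0.109). March8, a ubiquitin ligase that removes class II molecules from the cell surface, fell by 0.71 ± 0.18 on the log2 scale (adjusted p = 0.0374), and kept the call in 1 of the 7 fits that left out 1 library (without control replicate 2), with adjusted p up to 0.1601. It was also not called with all 3 groups in one fit (adjusted p = 0.359), in the libraries of the same Xist and Y-linked mix (0.177) or with the replicate block (0.103).

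Among the regulators of MHC transcription, the coactivators of both classes were examined. Nlrc5, the class I coactivator, was at 134, 122, 106 and 128 CPM in control, 143, 104, 102 and 95.2 CPM in NA10hd and 151, 165 and 157 CPM in NV, and did not pass the threshold in NV (log2 fold change 0.36 ± 0.12, adjusted p = 0.1163). Ciita, the class II coactivator, was near the limit of detection, with 8, 13, 16 and 10 counts in control, 0, 0, 60 and 0 in NA10hd and 47, 27 and 27 in NV under its main ID. All NV libraries were above all control libraries, but the log2 fold change of 1.04 ± 0.59 did not pass the test (adjusted p = 0.3824). The 2 costimulatory receptors that could be tested were not called in any comparison by edgeR, with 1 at an unadjusted p under 0.05, in NV, beside 19.5% of all genes.

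**Figure D4:**
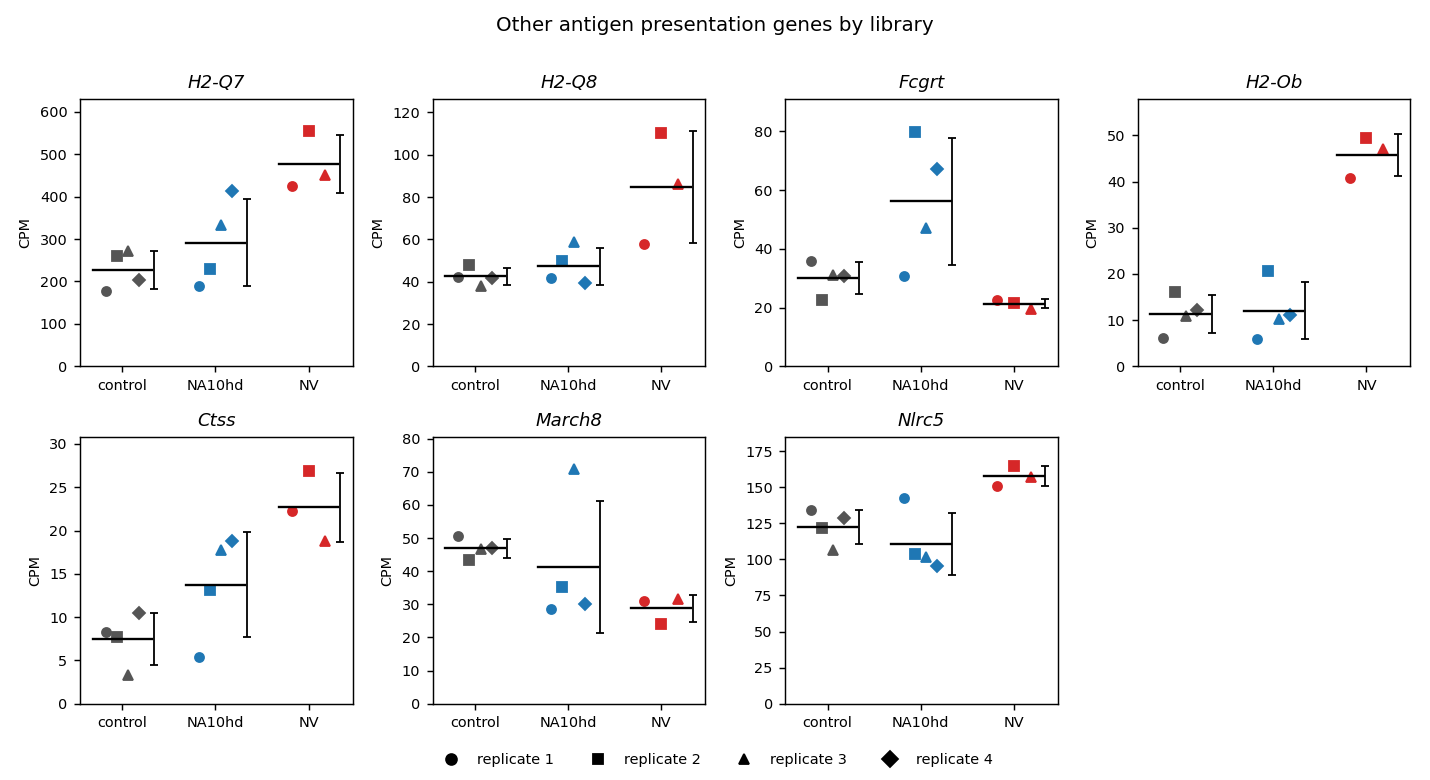
CPM in each of the 11 libraries of 6 other antigen presentation genes that were called in at least 1 comparison, and of Nlrc5, which was not called. Points are libraries, horizontal lines are means and bars are SD (n = 4 control, 4 NA10hd, 3 NV); NV libraries are above all others for H2-Q7, H2-Ob, Ctss and Nlrc5.

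Genes that lie between the members on chromosome 17 but are in none of the lists were examined with the same fits, from 34132962 to 36166718 (NCBIM37). Of 70 tested in NV, 3 rose and 1 fell (5.71%, beside 4.76% of all genes), and the median log2 fold change was 0.09. Of 67 tested in NA10hd, 0 were called by edgeR, with 9 at an unadjusted p under 0.05, beside 11.9% of all genes, and a median log2 fold change of 0.24, beside 0.02 over all genes and 0.33 over the 10 genes. Of 68 tested between NA10hd and NV, 2 were higher in NA10hd and 2 were lower (5.88%, beside 5.09% of all genes).

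Markers of cell types that express class II were measured beside these results. Of 8 B cell markers, Ms4a1, Pax5 and Blk had 0 counts in all libraries, and Cd79a had at most 5 counts. The summed level of the B cell list ranged from 45.7 to 70.9 CPM in control, 44.4 to 104 CPM in NA10hd and 40.2 to 52.0 CPM in NV, nearly all of it Cd79b. Of 8 dendritic cell markers, Itgax, Xcr1 and Siglech had 0 counts in all libraries, which allows at most 0.549 CPM in the shallowest, and the summed level ranged from 22.6 to 51.8 CPM in control, 31.1 to 45.9 CPM in NA10hd and 12.4 to 19.9 CPM in NV. The summed dendritic cell list was thus lowest in NV, without overlap with the other groups, and nearly all of it was Zbtb46, Clec9a and Flt3. Zbtb46 was higher in NA10hd than in NV (log2 fold change 2.63 ± 0.46, adjusted p = 0.0086). Flt3 libraries overlapped between all groups, and Clec9a libraries overlapped between NA10hd and NV.

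The 9 monocyte and macrophage markers found summed to 1.67 to 4.71 CPM in control, 1.47 to 19.9 CPM in NA10hd and 1.29 to 6.86 CPM in NV. Csf1r, the receptor that defines these cells, had 17 counts in NV replicate 3 and 0 in every other library. Of 6 T cell markers, Cd3e and Cd3g had 0 counts in all libraries. The list summed to 22.5 to 44.4 CPM in control, 25.4 to 51.0 CPM in NA10hd and 30.5 to 37.1 CPM in NV, nearly all of it Lck. Between NV and control no marker of another cell type was called. HSC markers did differ: Ly6a, which encodes Sca1, rose in NV (log2 fold change 0.70 ± 0.14, adjusted p = 0.0126), and the stem cell genes Procr (-0.72 ± 0.13, adjusted p = 0.0087) and Fgd5 (-1.13 ± 0.27, adjusted p = 0.0284) were lower. The part of these marker differences in the class II levels of NV was not tested.

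How the 10 genes varied within a genotype was described by Pearson's r of log2(CPM + 1) after subtracting the genotype mean, over 11 libraries that share depth and cDNA amplification as sources of variation. H2-K1 and H2-D1 varied most alike, with r = 0.92 (0.88 without NA10hd replicate 4). The next highest were H2-D1 with Cd74 at 0.85 (0.71) and H2-Ab1 with H2-Eb1 at 0.80 (0.73). H2-Aa was less like its partner chain H2-Ab1, at 0.26. Tap1 ran against H2-Eb1, at -0.64 (-0.84 without NA10hd replicate 4), although both were highest in NV. H2-Eb1 deviated by -1.18 to 1.05 in NA10hd, beside -0.43 to 0.42 in control and -0.02 to 0.03 in NV, so its r values rest largely on NA10hd. Of the 45 pairs 40 had an r above 0, with a median of 0.41. Without NA10hd replicate 4 these values fell to 31 pairs and a median of 0.22. Each r without NA10hd replicate 4 left out that library only after the mean of all NA10hd libraries had been subtracted. Such an r can therefore hold part of the difference between genotypes.

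Over 14003 genes, those most like the mean of H2-Aa, H2-Ab1, H2-Eb1 and Cd74 within genotypes were Cfdp1 (r = 0.96), Tiparp (0.96), Klf9 (0.95), Zfp866 (0.95), Sec61g (0.95), Ywhae (0.95), Elk3 (0.94), Fam110a (0.94), 1110019D14Rik (0.94) and Phf5a (0.94). They are named as the top of a ranking over 11 libraries, with no test, and none is in the antigen presentation lists. The class II mean deviated by -0.92 to 0.79 in NA10hd, beside -0.44 to 0.36 in control and -0.06 to 0.09 in NV. The ranking thus rests largely on the NA10hd libraries.

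**Figure D5:**
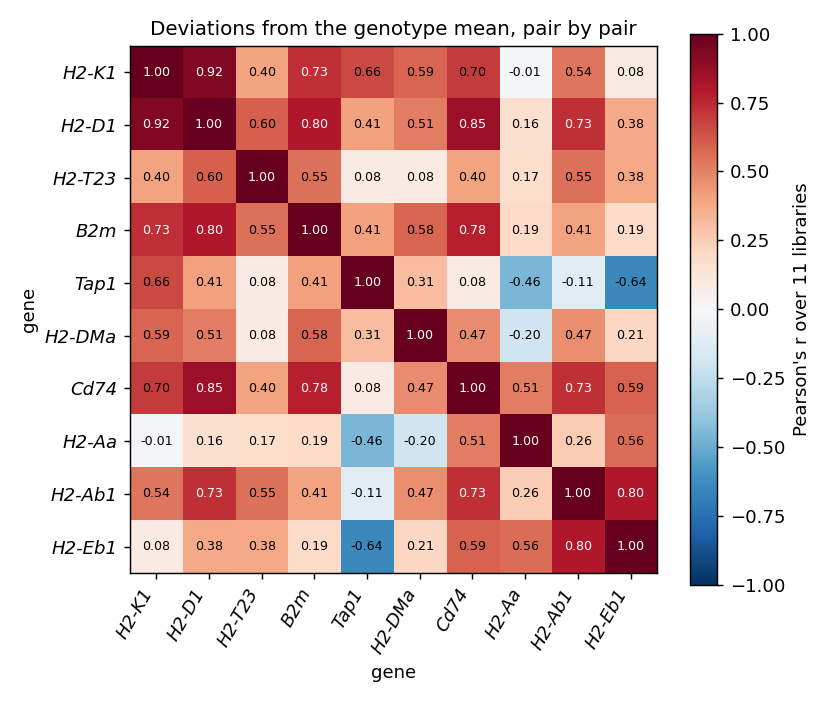
Pearson's r between each pair of the 10 genes, over the 11 libraries, of log2(CPM + 1) after the genotype mean was subtracted. H2-K1 with H2-D1 (0.92) is the highest pair and Tap1 with H2-Eb1 (-0.64) the lowest.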

How the data were processed

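RNA-Seq was measured in 11 libraries of sorted HSC. According to the methods and the submitters' processing notes, the authors used HISAT2 for alignment (build NCBIM37) and deposited raw counts per Ensembl gene from featureCounts, without normalization; versions, strand and the treatment of multi-mapping reads were not given in the sources used here. Each library was amplified from 1000 cells without molecular identifiers, so precision follows from the spread between libraries, not from the depth of 5464815 to 14283008 counts. GENCODE's annotation of NCBIM37 gave symbols and positions for 37205 of 37991 IDs.

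Groups were the genotypes of the labels. The members and lists were chosen with earlier results of these data known. The named genes were all members, every other listed gene called in any comparison, Ciita, Nlrc5, H2-Ea, defining markers and called markers, and the 10 genes most like the class II members; names outside that rule were chosen after their values were seen. H2-Ea was listed only as H2-Ea-ps, and the values of some genes that the rule names are not reported here. Each comparison was fitted on its own libraries with edgeR 4.0.16 in R 4.3.3 (TMM, filterByExpr, quasi-likelihood test). The thresholds were 1.5-fold and 0.05 (Benjamini-Hochberg adjusted p). On simulated data the fits recovered 27 (NA10hd against control), 53 (NV against control) and 16 (NA10hd against NV) of 100 changes of 2-fold. Of the simulated calls, 6.59% to 7.55% were false. CPM used TMM factors over all libraries. A limit for 0 counts was 3 counts of the library total and covers counting error only. Lengths were unions of exons. Windows of 50 bases shared between coding transcripts stood in for the planned protein identities, which were not analysed here. Within each genotype, pairs of libraries differed by 6.65 to 64.2 times the counting noise (chi-square per degree of freedom), so none was counted as a duplicate. Pairs ranged from 6.65 to 25.4 in control, 15.5 to 23.2 in NV and 41.3 to 64.2 in NA10hd. Without replicate 4 the NA10hd pairs ranged from 41.3 to 62.8. Alternatives were DESeq2 1.42.0, DESeq2 size factors, no filter, at least 10 counts in every library, 1 fit of all groups and a replicate block. Others were leaving out each library and, against control only, libraries of the same Xist and Y-linked mix. For levels the alternative was the longest transcript, and for motifs 200 bases before the start.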

Additional observations from a re-analysis of the deposited data

Results flagged for a closer look

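In each group of 4 libraries, the highest and the lowest library of the 10 genes and of 8 other genes of the pathway were compared with the rest, 36 groups in all, of which chance alone would mark about 1 in 20. In 3 groups 1 library stood far from the other 3. H2-D1 in control replicate 2 was at 1995 CPM (1994.74), with the other control libraries at 1861 to 1870.1 CPM. H2-Ab1 in control replicate 2 was at 75.3 CPM, with the other control libraries at 41.5 to 46.9 CPM. March8 in NA10hd replicate 3 was at 70.8 CPM, with the other NA10hd libraries at 28.5 to 35.2 CPM. Control replicate 2 was also the highest control library for H2-K1, Cd74 and H2-Eb1. Groups of 3, such as NV, could not be examined in this way.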

How the results depend on the processing

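Between NV and control, 6 of the 10 genes, 6 other listed genes and 641 genes in all were called. DESeq2 called 1015 genes, 1 fit of all groups called 1 of the 10 genes and 155 genes, and the libraries of the same Xist and Y-linked mix gave 3 and 301. Leaving out 1 library gave 4 to 5 of the 10 genes, 3 to 7 other listed genes and 263 (without NV replicate 3) to 643 genes. Between NA10hd and control, 0, 0 and 1 were called. DESeq2 called 2, 1 and 238, 1 fit of all groups called 1 of the 10 genes and 39 genes, no filter and the filter of at least 10 counts called 8 genes each, the same mix called 0 genes, and leaving out 1 library gave 0, 0 and 0 to 5. Between NA10hd and NV, 2, 3 and 685 were called. DESeq2 called 5 other listed genes and 1480 genes, 1 fit of all groups called 1152 genes, and leaving out 1 library gave 0 to 3, 1 to 4 and 146 to 771. The replicate numbers did not pair the libraries, since the deviations of same-numbered libraries correlated at -0.109 to 0.0339. The replicate block gave 5, 5 and 432 in NV, 0, 0 and 0 in NA10hd, and 3, 3 and 581 between the mutants, where it turned the log2 fold changes of H2-D1 and B2m to -0.0276 and -0.11. Leaving out 1 library also turned the sign of values near 0, which ranged from -0.38 to 0.20 for H2-Ab1, -0.61 to 0.26 for Cd74 and -0.00765 to 0.64 for H2-Aa in NA10hd against control, and from -0.19 to 0.0843 for H2-DMa, -0.0252 to 0.14 for H2-D1 and -0.10 to 0.16 for B2m in NA10hd against NV. Apart from the fits of fewer libraries, the cause of these shifts was not tested. With the longest transcript as the length, levels in control were 2016 (H2-K1), 903 (H2-D1), 52.5 (H2-T23), 43.1 (H2-Ab1), 43.0 (Tap1) and 23.8 (H2-Aa) CPM per kb, in the same order. In the 200 bases before the start, the interferon response element core, AACNGATG, TGACG and CCAAT were found in 2.27%, 1.55%, 15.7% and 29.3% of promoters.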
